A study of Mus musculus with 7 samples.

Results

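Neural stem cell and astroglial genes were examined as a set of 42 symbols in 3 role groups: 14 radial glia and stem markers, 10 stemness transcription factors and 18 mature astrocyte genes. Members were found as the lines of the authors' deposited table whose Ensembl identifier, without its version, belongs to 1 of these mouse symbols. All 42 symbols are in the annotation used, and 13 of them have a line among the 3389 genes listed. The other 29 are not listed, which says neither that they were unchanged nor that they were absent.

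The cells were neural stem cells grown from mouse subventricular zone tissue in Neurobasal medium with B27, EGF and FGF-2, agents shared by both groups. Of 7 libraries, 4 came from cells nucleofected with shRNA against KAP1, the corepressor encoded by Trim28, and 3 from control cells. The sources used here do not give mouse strain and age, the control construct or the time after nucleofection, and do not say whether the libraries came from separate cultures, so p-values reflect the spread among these libraries alone, which may be technical. The table holds the authors' mean normalized count over samples, the log2 fold change, the standard error (SE) of that change and the DESeq2 adjusted p, and no value per sample, so each gene is given by these and by a 95% interval computed from them. Its largest adjusted p is 0.0499, and library depth is unknown.

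In the subventricular zone, slowly dividing stem cells keep features of both radial glia, the stem cells of the embryonic brain, and astrocytes. They carry intermediate filaments such as vimentin, nestin and GFAP, take up glutamate through astroglial transporters, and depend on transcription factors such as Sox2, Pax6 and Nr2e1. Growth in EGF and FGF-2 keeps such cells dividing, whereas BMP signals and serum drive them towards astrocytes.

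Transcripts of radial glia and stem markers were higher in shKAP1 cells where they were listed. Most stemness transcription factors and most mature astrocyte genes were not listed, and the listed mature astrocyte genes were 3 higher and 1 lower. Of the 42 members, 11 were higher, 2 were lower and 29 were not listed, so that 31.0% were listed against a background of 26.3% of the 12905 genes with an adjusted p. Shares of this and every other list count all its symbols, also any without an adjusted p, whereas the background counts only genes with one. Which of the symbols not listed received an adjusted p is unknown. Higher members made up 26.2% of the 42 against a background of 12.6%, and lower members 4.76% against 13.7%. Members and lists were chosen with earlier results of these data known, so these shares are descriptions and not a test. Listed members changed by 1.12-fold to 1.42-fold, and none reached 2-fold, as 82 of all listed genes did. Directions are as read from Trim28, which the authors' deposited table puts at -1.17 on the log2 scale (SE 0.05) and which was taken as lower in shKAP1.

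**Figure D1:**
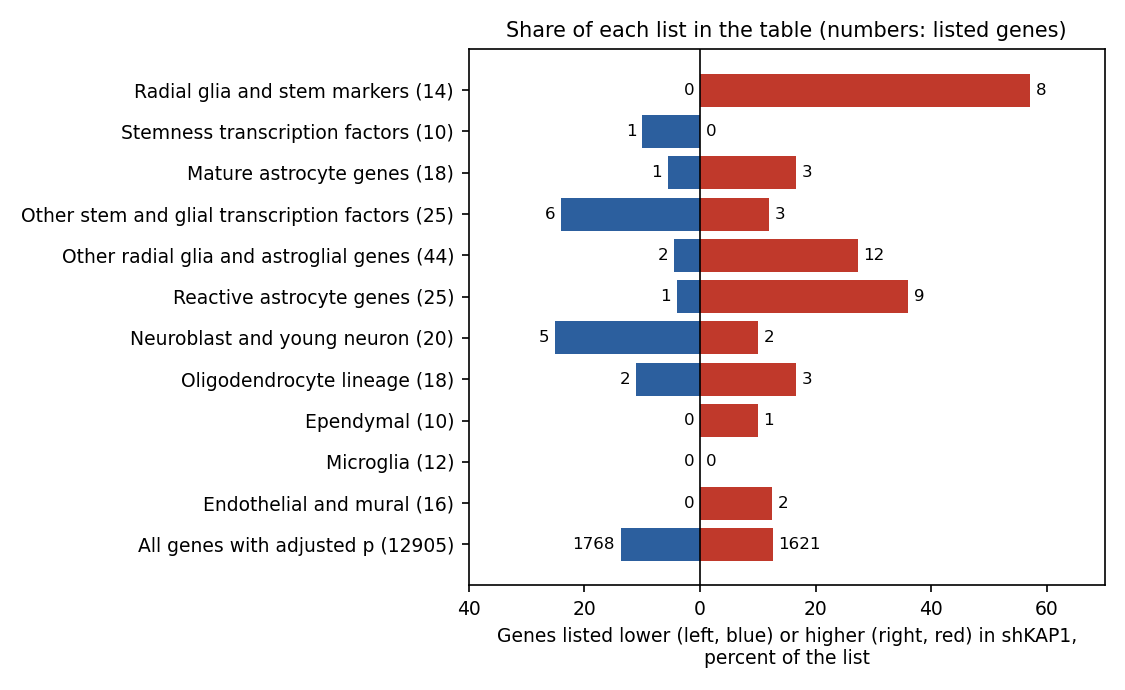
Share of each gene list found in the authors' deposited table, as percent of the genes on the list (in brackets), with genes lower in shKAP1 to the left in blue and genes higher to the right in red; the numbers at the bars are listed genes. Radial glia and stem markers have 8 of 14 genes on the right and 0 on the left, and stemness transcription factors have 1 of 10 on the left and 0 on the right. The lists were chosen with earlier results of these data known.

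Radial glia and stem markers had the most listed genes among the 3 groups, 8 of 14 or 57.1%, all higher. Over all genes with an adjusted p 12.6% were higher. The median log2 change of the 8 markers was 0.28 against -0.13 over all listed genes. Fabp7, the brain fatty acid binding protein of radial glia, had a mean normalized count of 191269 and rose by 0.48 on the log2 scale (DESeq2 adjusted p = 1.63e-17, SE 0.05) in the authors' deposited table. The rise was 1.39-fold, with a 95% interval of 1.30 to 1.49. Slc1a3, the glutamate transporter GLAST, rose by 0.47 (DESeq2 adjusted p = 7.12e-14, SE 0.06) in the authors' deposited table, or 1.38-fold with an interval of 1.28 to 1.49. Vim, the intermediate filament vimentin, was at 0.40 (DESeq2 adjusted p = 1.24e-17, SE 0.04) in the authors' deposited table, or 1.32-fold with an interval of 1.25 to 1.40. These 3 intervals overlapped one another and lay wholly beyond 1.2-fold, which 631 of all listed genes shared.

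Lrig1, a membrane protein that restrains EGF receptor signalling, rose less, by 0.29 (DESeq2 adjusted p = 2.13e-12, SE 0.04) in the authors' deposited table. Its 1.22-fold rise had an interval of 1.16 to 1.29, which lay below that of Fabp7, and the difference was not tested. The adhesion molecule gene Vcam1, found on stem cells at the ventricle wall, stood at 0.27 (DESeq2 adjusted p = 6.67e-05, SE 0.06) in the authors' deposited table, a rise of 20.5%. Both sat near the median listed gene, which differed by 1.22-fold.

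The remaining 3 listed markers changed least. Msi2, an RNA-binding protein of progenitors, was at 0.18 (DESeq2 adjusted p = 0.00864, SE 0.06) and Tnfrsf19, the receptor TROY, at 0.17 (DESeq2 adjusted p = 0.00780, SE 0.05) in the authors' deposited table. Nes, the filament nestin used to identify neural progenitors, was at 0.19 (DESeq2 adjusted p = 0.0482, SE 0.08) in the authors' deposited table, 3361st of 3389 genes by p. Nestin thus stood close to the limit of the table although its mean normalized count was 96600, and its interval ran from 1.03-fold to 1.27-fold. Prom1, Msi1, Hopx, Thbs4, Cd9 and Gfap were not listed. Gfap and Vim both encode filaments of astroglia, and a value is given here for Vim only.

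**Figure D2:**
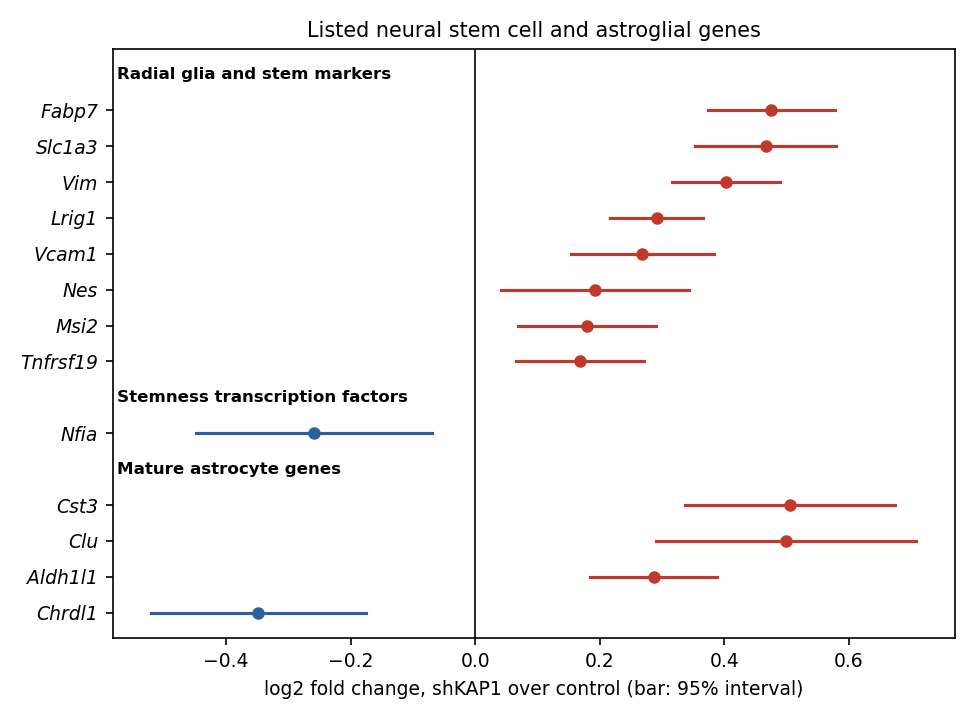
Log2 fold change of the 13 listed members in shKAP1 over control (points) with 95% intervals from the authors' standard errors (bars), grouped by role. The 8 markers lie between 0.17 and 0.48, Nfia and Chrdl1 lie left of 0, and Clu and Cst3 have the widest intervals among the higher genes.

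Promoter windows were taken for Vim, Fabp7, Slc1a3 and Lrig1, the listed members of smallest DESeq2 adjusted p. The windows come from RefSeq on GRCm38.p6 and cover the 250 bases before the RefSeq start of each gene, less any base that lies in an annotated exon. The bases left out, 42 for Fabp7 and 13 for Lrig1, lie between the end of the printed stretch and that start. RefSeq starts can differ from the GENCODE gene coordinates given below. The Vim window overlaps annotated Vim exon sequence and is not shown. Capitals mark matches, on either strand, to 5 motifs that were searched: the NFI short site TTGGC, the NFI full site (the short site, 5 bases of any kind and the reverse complement of the short site), the STAT motif TTCNNNGAA, the RBPJ motif GTGGGAA and the SOX motif ACAAAG. The short site is part of the full site. The Fabp7 stretch is chr10:57784673-57784880 (plus strand), that of Slc1a3 chr15:8710808-8711057 (minus strand) and that of Lrig1 chr6:94700159-94700395 (minus strand).
Fabp7: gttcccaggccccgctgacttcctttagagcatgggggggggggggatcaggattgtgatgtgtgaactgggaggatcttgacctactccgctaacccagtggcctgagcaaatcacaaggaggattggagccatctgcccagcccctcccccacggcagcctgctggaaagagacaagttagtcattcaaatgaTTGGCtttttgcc
Slc1a3: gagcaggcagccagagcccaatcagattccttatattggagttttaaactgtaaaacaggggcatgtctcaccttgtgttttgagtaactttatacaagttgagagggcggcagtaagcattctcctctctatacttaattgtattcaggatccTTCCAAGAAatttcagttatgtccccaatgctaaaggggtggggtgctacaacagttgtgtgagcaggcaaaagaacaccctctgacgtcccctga
Lrig1: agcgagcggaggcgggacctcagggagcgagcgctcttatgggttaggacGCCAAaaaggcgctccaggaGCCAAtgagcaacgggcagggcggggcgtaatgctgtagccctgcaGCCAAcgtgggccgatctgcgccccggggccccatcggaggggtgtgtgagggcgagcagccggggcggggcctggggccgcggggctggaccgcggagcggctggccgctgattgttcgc

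No motif searched was present in all 4 windows. Distances are counted from the RefSeq start to the first base of a match. The NFI short site was found 55 bases before that start of Fabp7, at 3 places before Lrig1 and at 2 before Vim. The STAT motif TTCCAAGAA was found 96 bases before the RefSeq start of Slc1a3. Of the 42 members 33 had a window, and the short site was in 17 of these (51.5%), against 41.9% of 27025 genes and 47.2% of listed genes, each with its first window. Among the 9 higher members with a window, 3 had the short site, 1 the STAT motif and 0 the RBPJ or SOX motif. The shares over all genes were 7.18% for STAT, 5.41% for RBPJ and 16.5% for SOX, and the full NFI site was in 0.0407% of genes and in none of the 33 member windows. A match is a run of letters and not a measured binding site.

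Stemness transcription factors were the least listed of the 3 groups, with 1 of 10 or 10%, against 26.3% of all genes with an adjusted p. Whether the other 9 received an adjusted p is unknown. Nfia, a nuclear factor I protein that starts gliogenesis in the mouse, fell by 0.26 in log2 units (DESeq2 adjusted p = 0.0316, SE 0.10) in the authors' deposited table. The level decreased by 16.4%, with an interval of 1.05-fold to 1.36-fold, and it did not pass an adjusted p of 0.01. Sox2 and its relatives Sox1 and Sox3, which keep neural progenitors undifferentiated, were not listed. Neither were Sox9, a factor of glial fate, Pax6, a factor of radial glia and neurogenesis, the orphan receptor Nr2e1, Id4, Rfx4 and Nfix. The table gives no interval for these 9, so the size of change that their data allow is unknown.

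What the table could list depended on precision. Its smallest Wald statistic was 2.48 in size, so a gene with the median SE of listed genes with mean counts of 2000 to 10000, 0.06, needed a change of 1.11-fold. At mean counts of 10000 and over, where Vim, Fabp7, Slc1a3, Aldh1l1, Nes, Lrig1, Cst3 and Msi2 lie, it was 1.09-fold. Under a mean count of 500 the median SE was 0.17 and the change needed was 1.35-fold. These are values of listed genes, and the mean counts and SEs of the 9 factors are not in the table.

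Further transcription factors of stem cells and glia, from a list of 25 beside the members, were listed in both directions, 3 higher and 6 lower. These were 12% higher and 24% lower, against 12.6% and 13.7% over all genes with an adjusted p. Id1, a helix-loop-helix inhibitor induced by BMP, stood at 0.77 (DESeq2 adjusted p = 1.20e-13, SE 0.10) in the authors' deposited table, and its relative Id2 at 0.52 (SE 0.14). Nfic, a relative of Nfia, was higher at 0.19 (SE 0.04) in the authors' deposited table. Lower factors in the authors' deposited table were Sox5 at -0.35 (SE 0.09), Sox6 at -0.25 (SE 0.08), Zbtb20 at -0.49 (SE 0.13), Meis2 at -0.34 (SE 0.09), Lhx2 at -0.15 (SE 0.04) and Hey2 at -0.75 (SE 0.30).

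Within families of factors, listed genes stood beside relatives that were not listed. In the Id family Id1 and Id2 were higher, and Id3 and Id4 were not listed. In the nuclear factor I family the interval of Nfia, -0.45 to -0.07 on the log2 scale, lay below that of Nfic, 0.10 to 0.27, and Nfib and Nfix were not listed. Among the Sox genes examined, the SoxD genes Sox5 and Sox6 were lower, and Sox1, Sox2, Sox3, Sox4, Sox8, Sox9, Sox10, Sox11 and Sox21 were not listed. The Notch effector genes Hes1, Hes5 and Hey1 were not listed either, whereas Hey2 was lower at a mean normalized count of 125 in the authors' deposited table.

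Mature astrocyte genes were listed about as often as all genes, 4 of 18 or 22.2% against 26.3%, with 3 higher and 1 lower. Cst3, the protease inhibitor cystatin C, had the largest rise of any listed member, 0.51 (DESeq2 adjusted p = 1.34e-07, SE 0.09) in the authors' deposited table, or 1.42-fold with an interval with a lower bound of 1.26-fold. Clu, the secreted chaperone clusterin, stood at 0.50 (DESeq2 adjusted p = 3.92e-05, SE 0.11) in the authors' deposited table, or 1.41-fold with an interval of 1.22 to 1.63. Aldh1l1, a folate enzyme widely used to label astrocytes, was at 0.29 (DESeq2 adjusted p = 9.73e-07, SE 0.05) in the authors' deposited table, or 1.22-fold with an interval of 1.14 to 1.31. The intervals of the 3 genes overlapped one another and those of Fabp7, Slc1a3 and Vim.

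Chrdl1, a secreted BMP antagonist made by astrocytes, went the other way and fell by 0.35 (DESeq2 adjusted p = 6.99e-04, SE 0.09) in log2 units of the authors' deposited table. The fall was 1.27-fold with an interval of 1.13 to 1.43. The other 14 genes of the group were not listed. They include the water channel Aqp4, the glutamate transporter Slc1a2, the glutamine synthetase gene Glul, the connexin genes Gja1 and Gjb6, the sodium pump subunit gene Atp1b2, and Mlc1, whose protein takes part in cell volume regulation. The others are Apoe, Aldoc, S100b, Sparcl1, Agt, Ntsr2 and Acsl6. Both glutamate transporters of astroglia are among the members, and Slc1a3 was higher whereas Slc1a2 was not listed, a difference that was not tested.

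Other astroglial genes beside the members, a list of 44, gave 12 higher (27.3%) and 2 lower (4.55%). The shares over all genes with an adjusted p were 12.6% higher and 13.7% lower. Listed in either direction were 31.8% of this list, against 26.3% of all genes with an adjusted p. The leading ones in the authors' deposited table were Ncan, the proteoglycan neurocan, at 0.50 (SE 0.05), the tissue factor gene F3 at 0.64 (SE 0.10), Hepacam, an adhesion molecule that binds Mlc1 protein, at 0.25 (SE 0.04), and Ptprz1, a receptor phosphatase of glial progenitors, at 0.37 (SE 0.07). Genes of reactive astrocytes, a list of 25, gave 9 higher (36%) and 1 lower (4%), against the same 12.6% and 13.7%. The small heat shock protein gene Cryab at 1.07 (SE 0.12), the galectin gene Lgals3 at 1.52 (SE 0.19) and the cytokine gene Clcf1 at 1.53 (SE 0.25) had larger log2 fold changes than any listed member, and the chemokine gene Cxcl10 fell by 0.92 (SE 0.13), in the authors' deposited table. The mean normalized counts of Lgals3 and Clcf1 were 226 and 177 in the authors' deposited table. The other listed reactive genes were all higher in the authors' deposited table. They were Osmr at 0.56 (SE 0.12), Cd44 at 0.26 (SE 0.05) and S100a10 at 0.36 (SE 0.07). With them stood Gbp2 at 0.36 (SE 0.11), Cd109 at 0.20 (SE 0.06) and S100a6 at 0.80 (SE 0.28), the last at a mean normalized count of 73. The remaining 15 genes of this list, among them Lcn2, Serpina3n and C3, were not listed, and neither was the member Gfap.

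**Figure D3:**
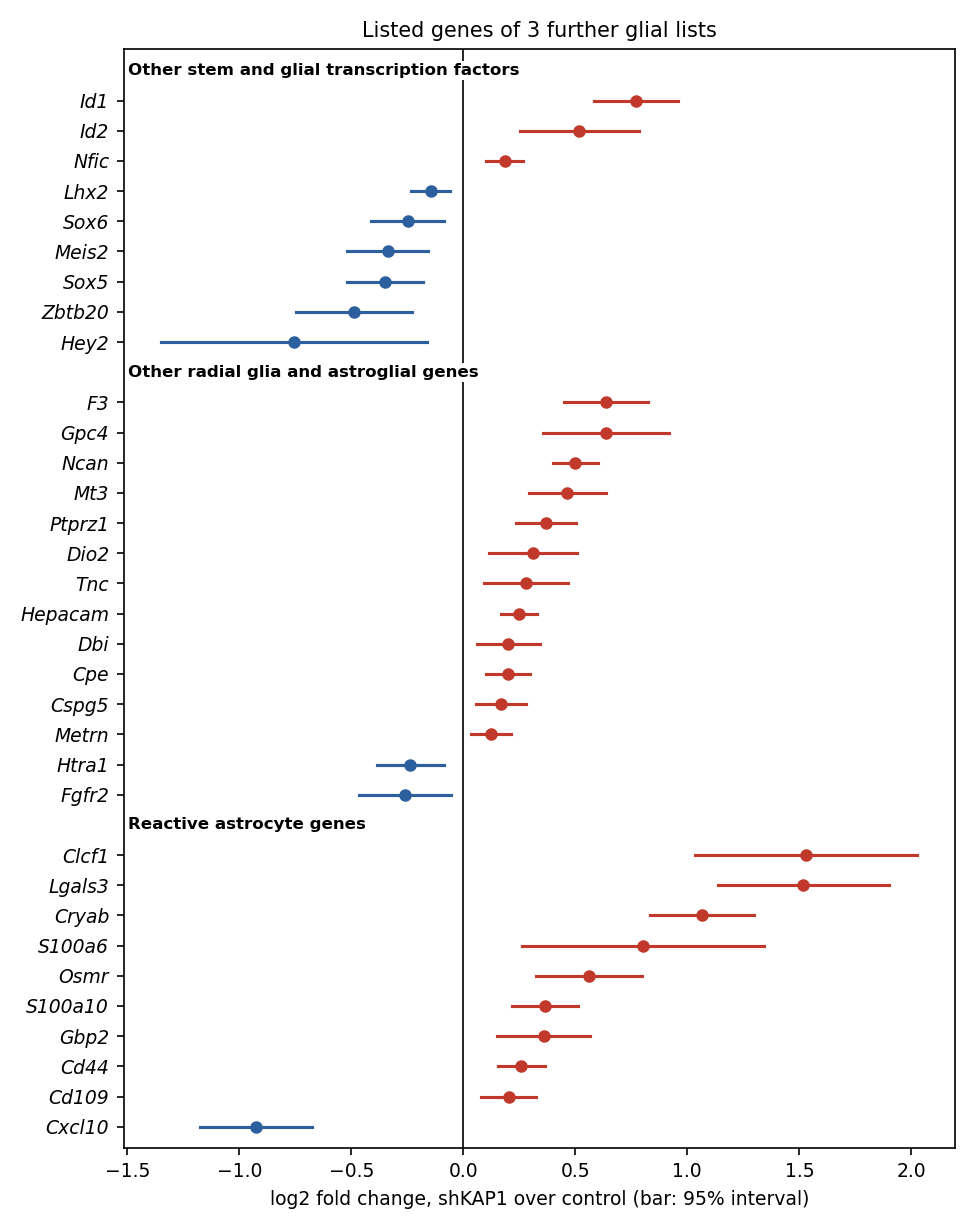
Log2 fold change in shKAP1 over control (points) with 95% intervals (bars) for the listed genes of 3 further glial lists. The transcription factors split into 3 higher and 6 lower, the other astroglial genes into 12 and 2, and the reactive astrocyte genes into 9 and 1.

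The members differed widely in level, which was compared per kilobase of transcript because longer transcripts collect more reads. With the median annotated transcript length, Fabp7 had the highest mean normalized count per kilobase of the listed members, 227160, and Chrdl1 the lowest, 577. With the longest annotated transcript, a choice made after seeing the data, these values were 217351 and 500, and the same genes stood at the ends. Fabp7, Vim, Slc1a3 and Aldh1l1 were among the 100 most abundant listed genes per kilobase by both lengths. The place of Lrig1, Nes and Cst3 relative to that limit depended on the length used.

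The share of higher genes differed with the mean normalized count, without a steady trend. Of all listed genes 57.5% were higher under a mean count of 500, 48.7% at 500 to 2000, 44.5% at 2000 to 10000 and 49.2% at 10000 and over. At the top of the range, of the 17 listed genes with mean normalized counts of at least 100000, 4 were members, and of the other 13 genes 12 were higher and 1 lower (median 0.35 on the log2 scale). Above the lower bound of 50000, 34 of the other 54 listed genes were higher and 20 lower. Vim, Fabp7, Slc1a3, Aldh1l1, Nes and Lrig1 lie above 50000, and the part of count level in their rise was not tested. Vcam1, Tnfrsf19, Clu, Msi2 and Cst3 were higher at mean normalized counts of 2419 to 20506.

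**Figure D4:**
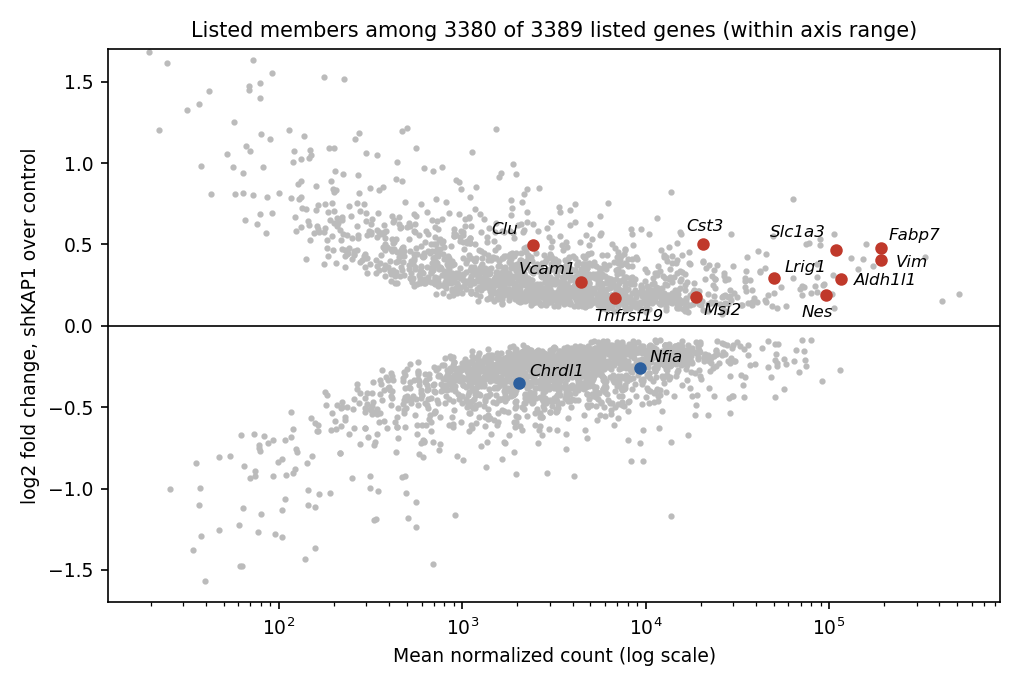
Log2 fold change in shKAP1 over control against mean normalized count (log axis) for listed genes in grey and the 13 listed members in red (higher) or blue (lower). The band around 0 holds no listed gene, and the changes of the genes that the table leaves out are unknown. At counts of at least 100000 only 1 listed gene is lower.

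Base composition also differed between higher and lower members. Median transcript GC content was 53.6% over the 11 higher members (42.02% to 57.2%), and 42.6% and 43.2% for the lower genes Nfia and Chrdl1. Among all listed genes 25.1% were higher in the quintile of lowest GC content, which holds Nfia and Chrdl1, and 61.3% in the fourth quintile, which holds 6 of the higher members. Fabp7 and Vcam1, at 42.02% and 42.6% GC, were higher and lie in that lowest quintile, and Slc1a3 lies in the second, where 37.1% were higher. The part of base composition in the direction of the members was not tested.

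**Figure D5:**
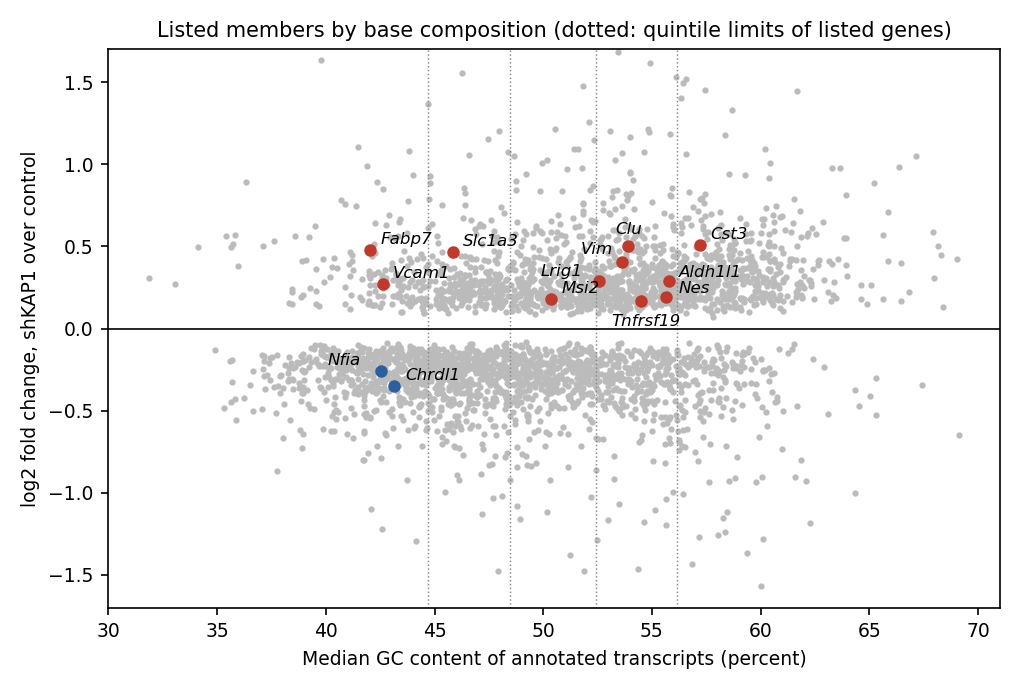
Log2 fold change in shKAP1 over control against median GC content of annotated transcripts for listed genes in grey and the 13 listed members in red (higher) or blue (lower), with dotted lines at the quintile limits. Nfia and Chrdl1 lie in the leftmost quintile together with the higher genes Fabp7 and Vcam1.

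Markers of other cells that such cultures could hold were examined beside the members, since in bulk RNA fewer cells of a type and less RNA per cell cannot be told apart. Over all genes with an adjusted p 26.3% were listed, 12.6% higher and 13.7% lower. The listed shares were 35% for neuroblast and young neuron markers (10% higher, 25% lower) and 27.8% for oligodendrocyte lineage markers (16.7% higher, 11.1% lower). They were 10% for ependymal, 12.5% for endothelial and mural, and 0% for microglia markers. These shares count all markers of a list, and how many of those not listed received an adjusted p is unknown. A low share can therefore not be set directly against 26.3%. Of 20 neuroblast and young neuron markers 2 were higher and 5 lower, with Celf4 at 0.95 (SE 0.19), Ncam1 at -0.26 (SE 0.06), Cd24a at -0.33 (SE 0.07) and Sp8 at 0.74 (SE 0.18, mean normalized count 241) in the authors' deposited table. The other 3, named after their values were seen, were all lower, the authors' deposited table giving Dcx, a microtubule protein of migrating neuroblasts, at -0.62 (SE 0.18), Elavl4 at -0.33 (SE 0.09) and Map2 at -0.11 (SE 0.04). Of 18 oligodendrocyte lineage markers 3 were higher and 2 lower, and Bcas1 at -1.03 (SE 0.11), Ugt8a at -0.63 (SE 0.14), Mobp at 1.03 (SE 0.24) and Olig1 at 0.11 (SE 0.04) led them in the authors' deposited table. Foxj1, the regulator of motile cilia, was the 1 listed of 10 ependymal markers, at 0.59 (SE 0.07) in the authors' deposited table. Of 16 endothelial and mural markers, the authors' deposited table lists Acta2 at 1.03 (SE 0.24) and Tagln at 0.87 (SE 0.22), both higher. Their mean normalized counts were low, 133 and 127. None of 12 microglia markers was listed by the authors' DESeq2 test, and no unadjusted p of theirs is in the table. The part of a shift between cell types in the members' changes was not tested.

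In GRCm38 the listed members lie on 9 chromosomes. Vim is at chromosome 2, 13573927 to 13582826 (ENSMUSG00000026728.9), Fabp7 at chromosome 10, 57784881 to 57788450 (ENSMUSG00000019874.11), and Slc1a3 at chromosome 15, 8634124 to 8710764 (ENSMUSG00000005360.14). Nfia is at chromosome 4, 97772734 to 98118874 (ENSMUSG00000028565.18), Chrdl1 at chromosome X, 143285674 to 143394262 (ENSMUSG00000031283.16), and Cst3 at chromosome 2, 148871722 to 148875692 (ENSMUSG00000027447.6). Nfia, Lrig1, Vcam1, Msi2, Tnfrsf19 and Aldh1l1 overlap genes on the opposite strand, and Slc1a3, Aldh1l1, Lrig1 and Msi2 overlap gene models that are not protein-coding on their own strand. None of these overlapping genes was listed. The libraries were strand-specific, per the labels' protocols, and whether the authors' counting used strand is not given in the sources used here.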

How the data were processed

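Poly(A)-selected, dUTP strand-specific RNA libraries were made from 4 shKAP1 and 3 control samples, per the labels' protocols, and grouped by library name. Tools named in the submitters' processing notes are Trim Galore 0.4.4, kallisto and DESeq2, with the build GRCm38. Not given in the sources used here are the kallisto and DESeq2 versions, the annotation and the model. Per the file headers, the authors deposited 1 comparison: the mean normalized count (a signal, averaged across libraries), log2 fold change with SE, a signed fold change and a Wald statistic (scores), p-value and adjusted p-value. The table has no sample columns, so nothing was refitted and depth per library is unknown.

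The number of genes with an adjusted p, 12905, was recovered from adjusted p times rank over p (within 0.01 in 85.2% of lines), a step tested on simulated data. Intervals are log2 fold change ± 1.96 SE. Symbols, coordinates, lengths and GC content came from GENCODE M21 (GRCm38), promoters from RefSeq (GRCm38.p6). Python 3.11.15 and pandas 2.3.3 were used. All listed members were named, and up to 4 genes per other list by adjusted p. Sox6, Zbtb20, Meis2, Lhx2, Hey2, Htra1, Fgfr2, Dcx, Elavl4, Map2, Olig2, Osmr, Cd44, S100a10, Gbp2, Cd109 and S100a6 were added after their values were seen. Members and lists were chosen with earlier results of these data known, and 2 genes were left out of the further lists and their counts and are not reported here. Lists were described by counts, with no test. Alternatives were stricter limits on adjusted p, fold, interval and count.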

Additional observations from a re-analysis of the deposited data

How the results depend on the processing

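The split of 11 higher and 2 lower members became 10 and 1 at an adjusted p under 0.01, where Nes and Nfia dropped out, 7 and 0 at a Bonferroni limit, 5 and 0 with intervals wholly beyond 1.2-fold, and 0 and 0 at a 2-fold minimum, by construction fewer. It stayed at 11 and 2 with a mean normalized count of at least 100. The 8 higher radial glia and stem markers became 4 at the Bonferroni limit, 3 with intervals beyond 1.2-fold and 0 at 2-fold. The 3 higher mature astrocyte genes became 2 with intervals beyond 1.2-fold and 0 at 2-fold, and the 1 lower gene, Chrdl1, became 0 at the Bonferroni, 1.2-fold and 2-fold limits. The 1 lower transcription factor, Nfia, became 0 at each of these and at an adjusted p under 0.01. These limits apply to the authors' DESeq2 results, the only tool whose result is at hand, and every listed gene has an unadjusted p of at most 0.0131 because of how the table was made.

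Leaving out replicates was not run, since only fitted values are given. No paired analysis was possible because single libraries have no columns, though libraries numbered 1, 2 and 4 exist for shKAP1 and for control. Precision limits what an absent gene shows: the SE of a gene not listed is unknown.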

Other observations

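Among the listed stem cell and glial transcription factors, the lower ones included several very long genes. Nfia spans 346 kb, Sox5 954 kb, Zbtb20 767 kb, Sox6 568 kb and Meis2 203 kb in GENCODE M21, whereas the higher factors Id1, Id2 and Nfic span 1.16, 3.34 and 59.5 kb. Lhx2 and Hey2, at 30.5 and 10.4 kb, were lower as well. Over all listed genes, 64.9% of the quintile of shortest genomic span (up to 9.31 kb) were higher, against 41.3% of the longest (at least 84.7 kb) and 36.6% of the fourth quintile. Of the 5 listed members in the longest quintile, Msi2 at 379 kb, Aldh1l1 at 114 kb and Lrig1 at 95.6 kb were higher, and Nfia and Chrdl1, the latter at 109 kb, were lower. This pattern was seen in the values first, genes are not replicates, and no test was made.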
